A study of Mus musculus with 18 samples.

Results

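The genes described here are Prdm1, Thbs1, Extl1, Gramd1b, Tmem140, Htra4 and Fam43a, which ISO moved in opposite directions in brown adipocytes without and with lipase inhibitors. They are 7 of the 20295 genes counted in the series, and all 7 passed the filter on low counts that left 12156 genes. The genes were picked on the measured effect of ISO against Vehicle and of ISO against Vehicle in the presence of the inhibitors, so that their values in these comparisons are given as a description, without a test.

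RNA-seq was done on BAT-LgT cells, brown preadipocytes of the mouse that carry the SV40 large T antigen as a single immortal line and were differentiated in culture to brown adipocytes. All 18 samples were taken on day 7, and each of the 6 groups held 3 samples. Vehicle received DMSO, ISO received the β-adrenergic agonist isoproterenol at 100 nM, and SR-3420 received a ligand of ABHD5 that switches on the triglyceride lipase ATGL without a β-adrenergic signal, each for 3 h. The same treatments after 1 h with inhibitors of ATGL and HSL gave Lipase Inh. + SR-3420, Lipase Inh. + ISO and, as their control, Lipase Inh. + Vehicle. The labels give SR-3420 at 10 µM and the text of the study another dose, and the dose used for these samples is therefore open. According to its methods the study used independent experiments, but no label ties samples of different groups to the same culture.

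β-Adrenergic agonists raise cAMP and activate protein kinase A in brown adipocytes. The kinase acts on transcription through CREB and other factors, and it also starts lipolysis, in which ATGL and HSL release fatty acids from stored triglyceride. ISO acts through both routes, and SR-3420 starts lipolysis alone. The inhibitors block lipase activity and keep the kinase route open, though not necessarily unchanged. The study proposes that signalling by the kinase rises when lipolysis is inhibited. The 7 genes encode proteins with different roles. Prdm1 (BLIMP-1) is a zinc finger repressor of transcription best known from the formation of plasma cells. Thbs1 is thrombospondin 1, a secreted glycoprotein of the extracellular matrix. Extl1 is an exostosin-like glycosyltransferase that acts on heparan sulfate chains, and Gramd1b (Aster-B) carries cholesterol from the plasma membrane to the endoplasmic reticulum. Tmem140 is a membrane protein, Htra4 a secreted serine protease of the HtrA family, and Fam43a belongs to the small FAM43 family.

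In the build mm9 used by the authors, Prdm1 lies at chr10:44156981-44178493 on the minus strand, Thbs1 at chr2:117937658-117952869 on the plus strand and Extl1 at chr4:133912288-133928462 on the minus strand. Gramd1b lies at chr9:40105492-40263349 on the minus strand, Tmem140 at chr6:34813146-34824946 on the plus strand, Htra4 at chr8:26135400-26149434 on the minus strand and Fam43a at chr16:30599809-30602883 on the plus strand. The GENCODE vM1 transcript nearest to the counted gene has between 1 exon (Fam43a) and 22 exons (Thbs1). Tmem140 overlaps the protein-coding gene 3110062M04Rik on the opposite strand over 3176 bp. On the opposite strand of Gramd1b lies the lincRNA 1700110K17Rik, with an overlap of 20139 bp, and on that of Htra4 the lincRNA Gm16933, with 1911 bp. Whether the counting used strand is not stated, so reads of these overlapping genes could be shared and the values of the 3 genes carry that limit.

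Promoters were compared because the genes, which lie on different chromosomes, were each chosen for opposite ISO effects without and with inhibitors. RefSeq (GRCm38.p6) promoter windows of 300 bases, from 250 bases before to 50 bases after the gene start, were matched for 4 of the 7 genes, Prdm1, Extl1, Tmem140 and Fam43a. The 3 shown are those of Prdm1 and Extl1, which were higher with ISO alone, and of Fam43a, which was lower. Letters run from 5′ to 3′ on the strand of the gene, and capitals mark the core TGACG of the cAMP response element, read on either strand.
Prdm1, chr10:44458699-44458998, minus strand: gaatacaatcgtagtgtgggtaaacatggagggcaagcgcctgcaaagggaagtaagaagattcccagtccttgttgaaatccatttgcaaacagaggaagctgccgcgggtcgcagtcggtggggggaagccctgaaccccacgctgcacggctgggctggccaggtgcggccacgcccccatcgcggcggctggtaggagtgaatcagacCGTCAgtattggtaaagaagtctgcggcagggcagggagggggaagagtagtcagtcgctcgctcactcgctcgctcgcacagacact
Extl1, chr4:134372498-134372797, minus strand: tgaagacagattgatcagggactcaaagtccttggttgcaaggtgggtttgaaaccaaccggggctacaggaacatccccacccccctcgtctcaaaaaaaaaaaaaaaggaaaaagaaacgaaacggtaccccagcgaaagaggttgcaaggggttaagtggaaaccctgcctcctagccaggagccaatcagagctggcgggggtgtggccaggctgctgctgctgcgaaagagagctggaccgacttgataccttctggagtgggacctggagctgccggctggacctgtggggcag
Fam43a, chr16:30599473-30599772, plus strand: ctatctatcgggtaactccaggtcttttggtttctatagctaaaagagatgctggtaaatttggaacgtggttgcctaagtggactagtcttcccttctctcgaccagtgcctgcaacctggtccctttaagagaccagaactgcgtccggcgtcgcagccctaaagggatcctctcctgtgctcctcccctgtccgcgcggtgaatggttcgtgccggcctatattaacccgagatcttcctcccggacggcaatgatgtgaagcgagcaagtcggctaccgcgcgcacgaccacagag
The motifs searched on both strands were the full cAMP response element TGACGTCA, its core TGACG (which the full element contains), AP-1 (TGACTCA or TGAGTCA), the E-box CACGTG, the ATF4 composite site (TGATGCAA or TGATGAAA), the sterol element TCACCCCAC, and the nuclear receptor repeats DR1 and DR4. A single match was found in the 4 promoters, the core CGTCA on the opposite strand in Prdm1, starting 38 bases before the gene start. Of 32851 RefSeq promoters of the same length, 20.8% held this core, 7.15% an E-box, 5.2% an AP-1 site, 1.9% an ATF4 composite site, 1.79% the full cAMP response element, 0.551% the sterol element, 0.0396% DR1 and 0.0152% DR4. GC content was 59.7% in Prdm1, 55.3% in Extl1, 55% in Fam43a and 49.0% in Tmem140, beside a median of 52.7% over all promoters. CpG dinucleotides numbered 20 in Prdm1, 21 in Fam43a, 9 in Extl1 and 7 in Tmem140, and the median promoter held 7.

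In 17 of the 18 libraries the total count was 10310447 to 21205032. Lipase Inh. + SR-3420 replicate 2 stood apart with 4263755 counts, of which the gene Lars2 took 18.3%, so results that use this group are given with and without this library. Adipocyte markers (7 of 7 measured, among them Adipoq and Fabp4) summed to between 10800 and 16200 CPM (counts scaled to library size) in every sample. Brown adipocyte markers (7 of 8 passed the filter, Ucp1 and Ppargc1a among them) summed to 1611 to 1727 CPM with ISO, 1028 to 1264 with Lipase Inh. + ISO and 179.1 to 331.3 in the other groups, and their part in the results was not tested. Markers of macrophages (1 of 5 passed the filter) summed to at most 6.296 CPM, with Ptprc at 0 in all samples, those of endothelium (0 of 4 passed) to at most 0.631 CPM and those of muscle (2 of 4) to at most 2.548 CPM. Fibroblast or preadipocyte markers (6 of 6) summed to between 152.8 and 254.2 CPM in all groups. In bulk samples, fewer cells of a type and less RNA per cell cannot be told apart.

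Across all genes, 612 were called higher with ISO than with Vehicle (5.03% of those tested) and 495 lower (4.07%), where a call needs an adjusted p no higher than 0.05 together with a log2 fold change of 1 or more in either direction. With inhibitors, ISO gave 660 calls for higher (5.43%) and 928 for lower expression (7.63%). Of the 520 genes called in both comparisons, 510 moved the same way and 10 moved in opposite directions, which is 0.0823% of the genes tested. The 10 are the 7 genes described here and 3 others, Insig1, Fzd5 and Fzd9. Prdm1, Thbs1, Extl1, Gramd1b and Tmem140 were called higher with ISO alone and lower with ISO after inhibitors, and Htra4 and Fam43a the reverse. Nothing is read from these counts, since the genes were selected by them.

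The thresholds cut through a continuum. With the adjusted p alone, 453 genes had opposite directions, 285 of them higher and 168 lower with ISO alone. Closest inside the threshold lay Fzd9, a Wnt receptor, with a log2 fold change of -1.34 without and 1.04 with inhibitors, and Tmem140 with 1.05 and -1.39. Closest outside lay Calcrl, the receptor subunit for calcitonin gene-related peptide and adrenomedullin, with 0.97 and -1.43, followed by the zinc finger factor Zbtb16 with 0.94 and -1.66 and the homeodomain repressor Tgif1 with 1.51 and -0.93. Insig1, which retains sterol-sensing proteins in the endoplasmic reticulum, had 1.105 and -2.80, and the Wnt receptor Fzd5 had 1.07 and -1.33. Libraries scaled by total counts in place of TMM moved the median log2 fold change of all genes by -0.31 for ISO alone and by -0.23 for ISO with inhibitors. On that scale the effect of ISO alone was 0.81 for Thbs1, 0.79 for Gramd1b and 0.74 for Tmem140, with the sign kept but under the fold threshold, and 3 of the 7 genes met both thresholds.

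**Figure D1:**
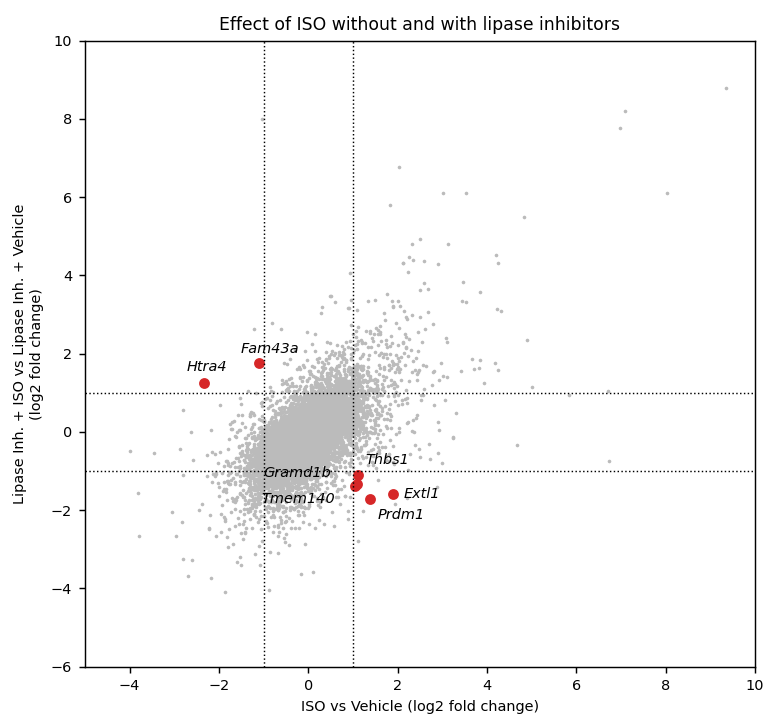
Log2 fold change of the genes tested (12156) with ISO without inhibitors (horizontal axis) and with inhibitors (vertical axis), dotted lines at a log2 fold change of 1 in either direction. Genes beyond the limits of the axes are not shown. The 7 genes (red) lie in the lower right and upper left corners, where 10 of the 12156 genes (grey) passed both thresholds.

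Thbs1 was the highest of the 7 genes per counted length, at 71.7 CPM per kb in Vehicle, ahead of Tmem140 at 64.8 (over a counted length of only 446 bp), Fam43a at 9.66 and Gramd1b at 5.31. Extl1 at 0.709, Htra4 at 0.653 and Prdm1 at 0.0734 CPM per kb were low, and their values rest on few reads. All levels that follow are CPM of TMM-scaled libraries, with replicates in the order 1, 2 and 3.

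Thbs1 levels were 419, 382 and 445 CPM in Vehicle, 901, 1002 and 802 with ISO, and 1929, 2075 and 1702 with SR-3420. After inhibitors they were 505, 451 and 571 with Vehicle, 230, 215 and 265 with ISO, and 498, 468 and 555 with SR-3420. SR-3420 thus gave the highest level in all 3 samples, followed by ISO, and Lipase Inh. + ISO the lowest, with no overlap between these groups and any other. Lipase Inh. + Vehicle (509 ± 59.9, SD, n = 3) and Lipase Inh. + SR-3420 (507 ± 44.5) overlapped. The log2 fold change with ISO was 1.12 ± 0.10 (SE) without and -1.103 ± 0.10 with inhibitors, and that between Lipase Inh. + ISO and ISO was -1.93 ± 0.11.

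Extl1 levels were 3.22, 2.71 and 2.82 CPM in Vehicle, 10.55, 11.75 and 10.4 with ISO, and 12.3, 16 and 12.1 with SR-3420. With inhibitors the values were 3.43, 3.30 and 2.20 for Vehicle, 1.08, 1.098 and 0.811 for ISO, and 4.60, 2.398 and 4.33 for SR-3420. Vehicle, Lipase Inh. + Vehicle and Lipase Inh. + SR-3420 overlapped, ISO and SR-3420 lay above them and Lipase Inh. + ISO below. ISO changed Extl1 by 1.89 ± 0.19 without and by -1.59 ± 0.27 with inhibitors on the log2 scale. The log2 difference between Lipase Inh. + ISO and ISO was -3.49 ± 0.23, the largest among the 5 genes of this direction. It rests on 12 to 16 counts per library in Lipase Inh. + ISO.

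Gramd1b levels were 11.9, 15.5 and 15.5 CPM in Vehicle, 30.1, 34.1 and 27.1 with ISO, and 33.4, 38.9 and 36.9 with SR-3420. In the inhibitor groups they were 21.4, 19.9 and 14.5 with Vehicle, 6.39, 8.06 and 7.55 with ISO, and 20.0, 20.0 and 19.4 with SR-3420. The order was the same as for Extl1, except that ISO and SR-3420 overlapped (30.4 ± 3.51 and 36.4 ± 2.78 CPM). The ISO effect was 1.098 ± 0.14 without and -1.33 ± 0.15 with inhibitors.

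Tmem140 levels were 25.3, 27.4 and 33.9 CPM in Vehicle, 55.03, 49.7 and 74.1 with ISO, and 38.9, 32.6 and 46.0 with SR-3420. Levels with inhibitors were 36.2, 27.9 and 42.7 for Vehicle, 13.2, 9.34 and 17.3 for ISO, and 54.6, 45.0 and 59.9 for SR-3420. ISO (59.6 ± 12.8) and Lipase Inh. + SR-3420 (53.2 ± 7.52) were the highest groups and overlapped, whereas SR-3420 alone (39.2 ± 6.73) overlapped Lipase Inh. + Vehicle (35.6 ± 7.41). Only Lipase Inh. + ISO (13.3 ± 4.00) was separated from its neighbour. With ISO the gene changed by 1.05 ± 0.18 without and -1.39 ± 0.20 with inhibitors. The antisense gene 3110062M04Rik, whose reads could be shared with Tmem140, changed by 0.93 ± 0.11 and -0.55 ± 0.11 in the same comparisons. Its level was 39.0 ± 3.52 CPM with ISO and 14.3 ± 2.17 with Lipase Inh. + ISO, and the part of each gene in the other's reads was not tested.

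Prdm1 was at the limit of detection, with 0 to 27 counts per library. Its levels were 0.316, 0.464 and 0.353 CPM in Vehicle (4 to 6 counts), 1.04, 1.595 and 0.21 with ISO (15, 19 and 2 counts), and 1.62, 1.99 and 1.42 with SR-3420 (22 to 27 counts). After inhibitors they were 0.438, 0.989 and 0.347 with Vehicle, 0.18, 0 and 0.253 with ISO (2, 0 and 5 counts), and 0.721, 0.533 and 0.573 with SR-3420. A count of 0 allows a level of up to 0.275 CPM in that library (3 counts, counting error only). ISO replicate 3 lay below all 3 Vehicle samples, so the ISO and Vehicle groups overlapped, whereas all SR-3420 samples lay above all Vehicle samples. The fitted ISO effect of 1.38 ± 0.56 without and -1.71 ± 0.71 with inhibitors therefore carries the widest error of the 7 genes. With libraries left out singly, the effect of ISO alone on Prdm1 lay between 0.87 (without ISO replicate 2) and 1.77 (without ISO replicate 3), and that with inhibitors between -2.51 (without Lipase Inh. + ISO replicate 3) and -1.18 (without Lipase Inh. + Vehicle replicate 2). The thresholds of the choice were then missed for ISO alone without any Vehicle sample, ISO replicate 1 or 2, SR-3420 replicate 1 or 3 or replicate 1 of each inhibitor group. For ISO with inhibitors they were missed without ISO replicate 1, SR-3420 replicate 1, Lipase Inh. + Vehicle replicate 2, or replicate 1 or 2 of Lipase Inh. + ISO or Lipase Inh. + SR-3420. With all libraries, Prdm1 also missed the thresholds for ISO alone with DESeq2 (1.37, adjusted p = 0.0799), with libraries scaled by total counts (1.08, adjusted p = 0.0972) and without the filter on low counts (1.36, adjusted p = 0.0585). Sdc1, a heparan sulfate proteoglycan of many epithelia that is also used as a plasma cell marker, was named after its values were seen. Its level was 132.6 to 157.7 CPM in Vehicle, 325.4 to 513.8 with ISO, 178.8 to 206.9 with SR-3420, 122.8 to 133.6 in Lipase Inh. + Vehicle, 707.1 to 782.1 in Lipase Inh. + ISO and 104.7 to 119.8 in Lipase Inh. + SR-3420. It was thus highest in the group where Prdm1 was lowest, and its part in the Prdm1 values was not tested. Cd79a, a subunit of the B cell receptor complex, and Igj, the joining chain of immunoglobulins, reached at most 0.541 and 0.948 CPM in any sample.

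Fam43a moved the other way with ISO. Its levels were 30.3, 31.3 and 27.4 CPM in Vehicle, 15.7, 12.5 and 13.0 with ISO, and 9.33, 13.0 and 12.4 with SR-3420. Inhibitors gave 31.6, 26.0 and 33.2 with Vehicle, 103.2, 101.9 and 101.8 with ISO, and 18.9, 20.5 and 20.6 with SR-3420. Lipase Inh. + ISO stood far above every other group, while ISO and SR-3420 overlapped at the bottom, and Lipase Inh. + SR-3420 lay between them and the Vehicle groups without overlap. The ISO effect was -1.104 ± 0.12 without and 1.75 ± 0.10 with inhibitors, a distance of 2.89 between Lipase Inh. + ISO and ISO.

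Htra4 levels were 1.58, 1.55 and 1.15 CPM in Vehicle, 0.208, 0.42 and 0.21 with ISO (2 to 5 counts), and 0.514, 1.035 and 0.629 with SR-3420. In the presence of inhibitors they were 1.68, 1.81 and 0.867 with Vehicle, 3.15, 2.84 and 3.95 with ISO, and 0.721, 2.13 and 0.7 with SR-3420. ISO was the lowest and Lipase Inh. + ISO the highest group, neither overlapping another, and the 4 groups between them overlapped in sequence. The ISO effect was -2.33 ± 0.49 without and 1.24 ± 0.32 with inhibitors. The value of 2.13 CPM belongs to the shallow library and rests on 8 counts.

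**Figure D2:**
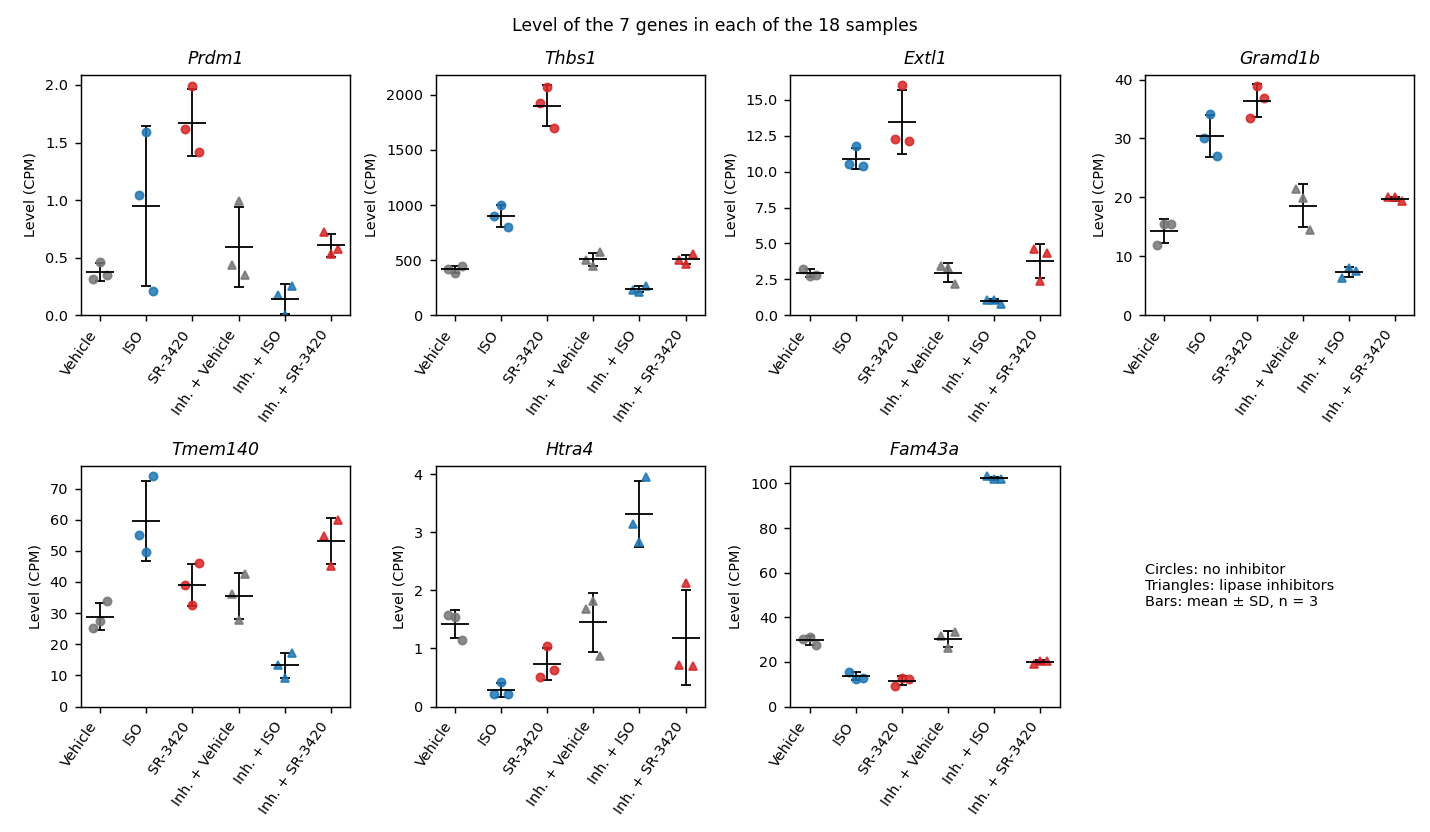
Level in CPM (TMM-scaled) of each gene in the 18 samples by group, circles without and triangles with lipase inhibitors, bars the mean ± SD of 3 replicates. In Lipase Inh. + ISO, Fam43a (102 ± 0.781 CPM) and Htra4 (3.31 ± 0.576 CPM) had their highest and the other 5 genes their lowest mean.

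Inhibitors alone were compared with Vehicle to see where the baseline of the second ISO comparison lay. By edgeR 0 of the 7 genes were called, beside 0.0494% of all genes, and DESeq2 also called 0. An unadjusted p under the level of 0.05 was found for 2 of the 7, beside 1361 of the 12156 genes tested. The largest log2 fold changes were 0.58 ± 0.60 for Prdm1 (adjusted p = 0.769), 0.38 ± 0.14 for Gramd1b (adjusted p = 0.266), 0.32 ± 0.19 for Tmem140 (adjusted p = 0.550) and 0.29 ± 0.10 for Thbs1 (adjusted p = 0.231). Extl1 (95% interval -0.45 to 0.45), Htra4 (-0.75 to 0.71) and Fam43a (-0.19 to 0.26) had estimates near 0. Both groups of this comparison were baselines in the choice of the genes.

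The inhibitors were then compared within SR-3420, since these 6 samples were in neither ISO comparison used to choose the genes. They did enter the filter, scaling and error of the fit over all 18 samples, so they were not wholly separate from the choice. Prdm1 missed the ISO thresholds when some of them were left out, as given above. Thbs1, Extl1 and Prdm1 were called lower in Lipase Inh. + SR-3420 than in SR-3420, 3 of 7 beside 2.57% of all genes. The study reported that SR-3420 also induced many ISO-induced genes and that the inhibitors blocked its effect nearly in full. Shares of all genes are thus a low background for genes chosen on ISO, and nothing particular to the 7 is read from these counts. Thbs1 fell by 1.91 ± 0.10 on the log2 scale (adjusted p = 1.20e-11), from 1902 ± 188 to 507 ± 44.5 CPM. For Extl1 the log2 fold change was -1.71 ± 0.19 (adjusted p = 2.97e-07), from 13.5 ± 2.20 to 3.77 ± 1.20 CPM. Prdm1 changed by -1.40 ± 0.49 (adjusted p = 0.0282). With the adjusted p alone, Gramd1b was also lower and Fam43a higher, in directions in which 20.9% and 18.9% of all genes passed. Gramd1b changed by -0.88 ± 0.14 (adjusted p = 2.17e-05) and Fam43a by 0.78 ± 0.13 (adjusted p = 3.59e-05). The samples of the 2 groups did not overlap for any of these 5 genes. The share of all genes without overlap was not counted, so nothing is read from this.

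Tmem140 and Htra4 did not pass in this comparison. Tmem140 was higher rather than lower in Lipase Inh. + SR-3420, by 0.46 ± 0.18 (95% interval 0.08 to 0.84, adjusted p = 0.0509). Its samples overlapped, and it passed in 16 of 28 alternatives. With a replicate block its adjusted p was 0.000327, and its same-numbered differences were positive for all 3 numbers. The antisense gene 3110062M04Rik changed by 0.032 ± 0.11 (adjusted p = 0.844). Htra4 had 0.37 ± 0.46 (95% interval -0.58 to 1.32, adjusted p = 0.548), an interval that includes a change of more than 1 upwards.

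Without the shallow library, the log2 fold changes between Lipase Inh. + SR-3420 and SR-3420 were -1.85 for Thbs1 (adjusted p = 5.34e-10), -1.59 for Extl1 (adjusted p = 1.33e-06), -0.89 for Gramd1b (adjusted p = 0.000106), 0.77 for Fam43a (adjusted p = 0.000147) and -1.36 for Prdm1 (adjusted p = 0.0471). Tmem140 then passed at 0.54 (adjusted p = 0.0357), and Htra4 went to -0.0046 (adjusted p = 0.996). Prdm1 lost its call with DESeq2 (adjusted p = 0.0606) and without SR-3420 replicate 1 (adjusted p = 0.0525) or 2 (adjusted p = 0.0783) or Lipase Inh. + SR-3420 replicate 1 (adjusted p = 0.0572) or 3 (adjusted p = 0.113).

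SR-3420 was compared with Vehicle to ask how the genes moved when lipolysis was started without a β-adrenergic signal. The Vehicle samples are shared with the choice of the genes, whereas the SR-3420 samples entered only the shared fit. Called higher were 4 of the 7 genes, beside 3.97% of all genes, and called lower were 2, beside 2.37%. The study reported that a large part of its ISO-induced genes was also induced by SR-3420 at the same cut-offs. Shares of all genes are therefore a low background for genes chosen on ISO, and nothing particular to the 7 is read from these counts. Thbs1 was higher by 2.19 ± 0.11 on the log2 scale (4.58-fold, adjusted p = 4.57e-13) and Extl1 by 2.19 ± 0.19 (4.56-fold, adjusted p = 3.88e-09). Prdm1 was higher by 2.11 ± 0.50 (adjusted p = 0.00139) and Gramd1b by 1.36 ± 0.13 (adjusted p = 3.24e-08). Tmem140 passed the adjusted p but not the fold threshold, at 0.45 ± 0.19 (adjusted p = 0.0460), and on the scale of total counts it had 0.29 (adjusted p = 0.202). Lower were Fam43a, at -1.36 ± 0.12 (adjusted p = 4.21e-09), and Htra4, at -1.005 ± 0.39 (adjusted p = 0.0368). For Htra4 this call was lost without Vehicle replicate 1 (-0.92, adjusted p = 0.111) or 2 (-0.95, adjusted p = 0.0886), without SR-3420 replicate 1 (-0.83, adjusted p = 0.128) or 3 (-0.90, adjusted p = 0.121), and with DESeq2 (adjusted p = 0.0718). Tmem140 no longer passed without Vehicle replicate 1 or 2, SR-3420 replicate 1 or 3, or replicate 1 of any other group, with a lowest value of 0.32 without SR-3420 replicate 3 (adjusted p = 0.216).

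With inhibitors, SR-3420 was compared with Lipase Inh. + Vehicle, whose samples are shared with the choice of the genes. By edgeR 0 of the 7 were called, beside 0.296% of all genes, and DESeq2 called 0. An unadjusted p under the level of 0.05 was found for 3 of the 7, beside 1906 of the 12156 genes tested. Fam43a passed the adjusted p alone, at -0.61 ± 0.12 (adjusted p = 0.00269), and had -0.62 (adjusted p = 0.00774) without the shallow library. Tmem140 had 0.60 ± 0.18 (adjusted p = 0.0742) and passed in 9 of 28 alternatives, among them the replicate block (adjusted p = 0.000132). It had 0.68 (adjusted p = 0.0701) without that library. Extl1 had 0.48 ± 0.22 (adjusted p = 0.282) and 0.60 without it, and Htra4 -0.61 ± 0.41 (adjusted p = 0.522) and -0.98 without it. The intervals of Thbs1 (-0.22 to 0.21) and Gramd1b (-0.20 to 0.39) excluded a change of 1 in either direction, whereas that of Prdm1 (-1.07 to 1.35) did not.

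The difference between the effects of SR-3420 with and without inhibitors was tested as an interaction. Both baselines are shared with the choice of the genes. Thbs1 (-2.20 ± 0.15, adjusted p = 7.81e-10), Extl1 (-1.71 ± 0.29, adjusted p = 0.000157) and Gramd1b (-1.26 ± 0.19, adjusted p = 5.21e-05) passed the adjusted p with a negative sign, as did 14.8% of all genes. Fam43a passed with a positive sign (0.75 ± 0.17, adjusted p = 0.00172), as did 12.5% of all genes. Without the shallow library these 4 values were -2.15, -1.59, -1.26 and 0.74. Prdm1 (-1.98 ± 0.79, adjusted p = 0.0668), which passed in 4 of 26 alternatives (adjusted p from 0.0296 to 1), Htra4 (0.39 ± 0.58, adjusted p = 0.656) and Tmem140 (0.14 ± 0.26, adjusted p = 0.731) did not pass. The 95% interval of the difference ran from -0.40 to 0.69 for Tmem140 and from -0.80 to 1.59 for Htra4. In the corresponding ISO values, which the choice of the genes fixed, the difference was -2.44 ± 0.27 for Tmem140 and between -3.48 and -2.22 for Thbs1, Extl1, Gramd1b and Prdm1.

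**Figure D3:**
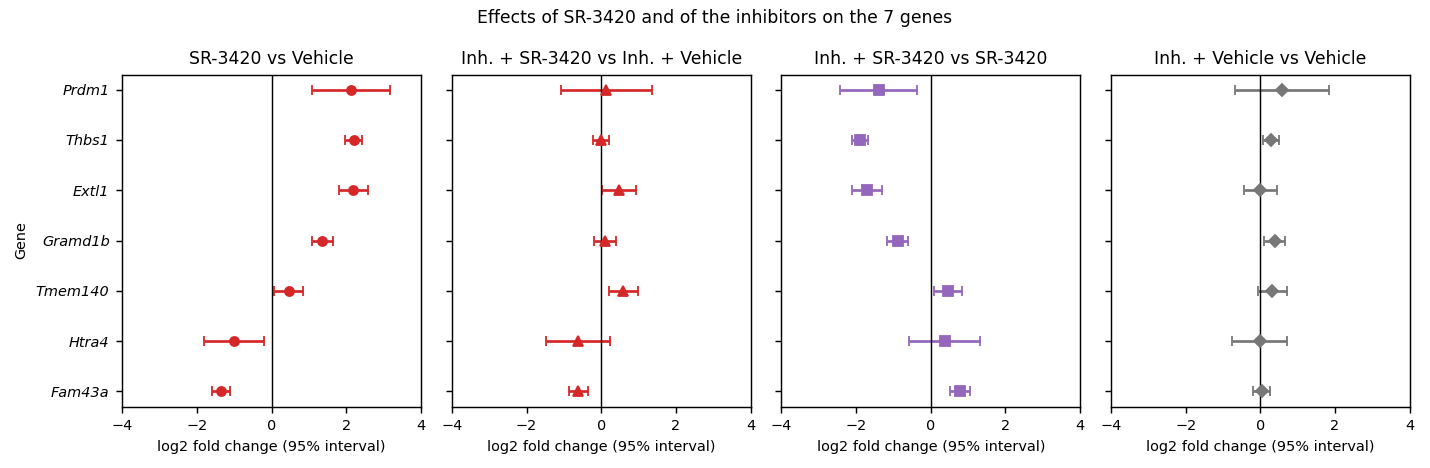
Log2 fold change with its 95% interval for the 7 genes in 4 comparisons, with a line at 0. Thbs1, Extl1, Gramd1b and Prdm1 lie right of 0 for SR-3420 against Vehicle and left of 0 for Lipase Inh. + SR-3420 against SR-3420, Fam43a lies on the opposite sides, and Tmem140 lies right of 0 in both.

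Relatives and partners of the 7 genes were examined in fixed lists, of which 61 genes were tested. Across the lists 6 of the 61 were called with ISO alone, beside 9.11% of all genes tested, and 12 with ISO after inhibitors, beside 13.1%. With SR-3420 against Vehicle 4 were called, beside 6.33%, and between Lipase Inh. + SR-3420 and SR-3420 2 were called, beside 4.12%. Medians that follow are log2 fold changes of the last of these comparisons, in which the median of all genes was 0.016.

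Of the PRDM family, 8 of 13 genes were tested, with a median of -0.29. Prdm11 was higher with ISO (1.49 ± 0.27, adjusted p = 7.16e-05) and with SR-3420 (1.39 ± 0.26, adjusted p = 0.000150), and lower in Lipase Inh. + SR-3420 than in SR-3420 (-1.63 ± 0.29, adjusted p = 0.000128). Prdm16, a factor of brown fat identity, was higher with ISO by 1.04 ± 0.17 (adjusted p = 2.31e-05), and Prdm9 was lower with ISO after inhibitors, at -1.18 ± 0.13 (adjusted p = 9.91e-08). Among genes known to act around Prdm1 in lymphoid cells, 6 of 10 were tested, with a median of -0.35. Irf4, which encodes a factor upstream of Prdm1 in B cells, was higher with ISO by 1.76 ± 0.15 (adjusted p = 3.56e-09), and Xbp1, a regulator of secretory capacity, was higher with ISO after inhibitors by 1.54 ± 0.06 (adjusted p = 4.01e-15). Id3, an inhibitor of basic helix-loop-helix factors, was higher with SR-3420 by 1.37 ± 0.17 (adjusted p = 6.82e-07) and lower in Lipase Inh. + SR-3420, at -1.37 ± 0.17 (adjusted p = 1.68e-06).

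Of the other thrombospondins, 3 of 4 were tested, with a median of 0.37, and Thbs2 was higher with SR-3420 by 1.25 ± 0.08 (adjusted p = 5.61e-11). All 9 receptors and partners of Thbs1 were tested, Cd36 and Cd47 among them, with a median of -0.125. Only the integrin subunit Itgb3 was called, higher with ISO by 1.07 ± 0.19 (adjusted p = 8.44e-05) and with SR-3420 by 1.09 ± 0.19 (adjusted p = 5.41e-05).

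Of the genes of heparan sulfate synthesis, 16 of 20 were tested, with a median of 0.094. Xylt1, which starts the chains, was higher with ISO by 2.41 ± 0.17 (adjusted p = 8.00e-11) and with ISO after inhibitors by 1.89 ± 0.16 (adjusted p = 1.19e-09). The sulfotransferase Hs2st1 (1.66 ± 0.08, adjusted p = 1.86e-13) and Extl3 (1.08 ± 0.06, adjusted p = 5.42e-12) were called higher with ISO after inhibitors, the comparison in which Extl1 was lower. Of the genes of GRAM domain proteins and sterol transfer, 10 of 11 were tested, with a median of -0.060. With ISO after inhibitors, Gramd1c was lower (-1.69 ± 0.54, adjusted p = 0.0112), as was Npc1, which exports cholesterol from lysosomes (-1.1005 ± 0.14, adjusted p = 7.27e-07), and Stard5 was higher (1.61 ± 0.09, adjusted p = 6.92e-13). Gramd1c was near the limit of detection, with means of 0.850 CPM in Lipase Inh. + Vehicle, 0.226 in Lipase Inh. + ISO and 0.509 in Vehicle.

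All 6 targets of the sterol receptor LXR were tested, with a median of 0.38. Mylip was lower with ISO (-1.23 ± 0.11, adjusted p = 5.00e-09) and with ISO after inhibitors (-1.71 ± 0.11, adjusted p = 2.39e-11), where Srebf1 (-1.33 ± 0.08, adjusted p = 5.76e-12) and Abcg1 (-1.12 ± 0.10, adjusted p = 5.38e-09) were lower too. Abca1 of the same list went the other way with ISO after inhibitors, by 0.94 (adjusted p = 1.88e-07), under the fold threshold. The list thus did not move as a whole. Htra1, Htra2 and Htra3 were tested beside Htra4, with a median of 0.18, and Htra3 was lower with ISO after inhibitors, at -1.55 ± 0.13 (adjusted p = 8.70e-10), while Htra4 was higher. Fam43b did not pass the filter on low counts. In the 35 genes of the heparan sulfate, sterol, LXR and HtrA lists, edgeR made 0 calls between Lipase Inh. + SR-3420 and SR-3420. DESeq2 also made 0. With the adjusted p alone, 21 of the 35 passed by edgeR and 21 by DESeq2, beside 4839 of the 12156 genes tested by edgeR. An unadjusted p under the level of 0.05 was found for 22 by edgeR. Of all genes, 4.12% were called in this comparison and 47.7% had an unadjusted p under that level.

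The genes most like each of the 7 were found by Pearson's r of log2 CPM over the 18 samples, which share libraries, so that r is a description. Closest to Thbs1 were Lonrf3 (r = 0.98), Txnip (r = 0.98) and Grhl1 (r = 0.97). Extl1 was closest to Sqstm1, Phf10 and Gtpbp2 (r = 0.97 each), and Gramd1b to Samd4 (r = 0.98), Fzd5 (r = 0.97) and Arhgef2 (r = 0.97). Fzd5 is thus both a neighbour of Gramd1b and one of the 10 genes with opposite ISO effects. Tmem140 was closest to Ptprm, Celf2 and Mmd (r = 0.95 each), Fam43a to Usp12 (r = 0.97), Dcaf12 (r = 0.97) and Psen2 (r = 0.96), Htra4 to Irf9 (r = 0.94), Pwwp2b (r = 0.92) and Stxbp3a (r = 0.91), and Prdm1 to Stbd1 (r = 0.92), Ahcyl2 (r = 0.88) and Unc5b (r = 0.87). When the 6 samples with ISO were left out, r over the remaining 12 samples was 0.98 for Thbs1 and Lonrf3, 0.96 for Prdm1 and Stbd1, 0.80 for Tmem140 and Ptprm, and 0.57 for Htra4 and Stxbp3a.

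Among the 7 genes themselves, r was highest between Extl1 and Gramd1b (0.95) and between Thbs1 and Extl1 (0.94), and most negative between Gramd1b and Fam43a (-0.96). Tmem140 was the least like the genes of its own direction, with r from 0.55 to 0.77, and Htra4 and Fam43a had an r of 0.83. The signs of these values follow from the choice of the genes.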

How the data were processed

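RNA-seq of 18 samples (6 groups of 3, named by the sample titles) was used. Per the labels and the study's methods, the authors prepared TruSeq libraries, aligned reads to mm9 with STAR 2.4.2a, kept a limited number of reads per position in HOMER, which can flatten high counts, and counted reads per gene with iRNA-seq. Raw counts of 20295 genes were deposited, with 0 columns of other samples, and gene positions and lengths (other columns) from the authors' annotation. Use of strand is not stated in the sources used here.

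edgeR 4.0.16 in R 4.3.3 was used with filterByExpr (minimum count 10, minimum total count 15), TMM factors and a quasi-likelihood fit with 1 mean per group over all 18 samples. Benjamini-Hochberg adjustment ran over 12156 genes, and calls used the study's cut-offs (0.05, and 1 on the log2 scale). Levels are TMM-scaled CPM, and log2 CPM has a prior count of 2. Total counts were 4263755 to 21205032. P-values measure the spread between samples of a single line.

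Members, gene lists and motifs were chosen with earlier results of these data known. A marker list is not reported here. Other genes are named where past the ISO thresholds or the 3 nearest outside, where called in a list, or as the 3 with the highest r (average log2 CPM of 2 or more). Abca1, which was not called, is named beside the called genes of its list. In simulated counts for Lipase Inh. + SR-3420 against SR-3420, 192 of 200 genes changed 3-fold were recovered among 12038 tested, and 3 others were called. The changed genes were drawn above a minimum mean CPM that Prdm1 did not reach, so the recovery does not apply to Prdm1. Differences shared by same-numbered samples were not simulated. Alternatives were DESeq2 1.42.0, RLE factors, total counts, other filters, only the groups compared, a replicate block, glmTreat, thinning, library sizes without Lars2 and each library left out.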

Additional observations from a re-analysis of the deposited data

Results flagged for a closer look

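For 4 of the 7 genes the effect of SR-3420 differed between cells with and without lipase inhibitors by the test of the difference itself. With the adjusted p alone, 3321 of the 12156 genes tested also passed. The log2 difference, the effect with inhibitors minus that without, was -2.20 for Thbs1 (adjusted p = 7.81e-10), -1.71 for Extl1 (adjusted p = 0.000157), -1.26 for Gramd1b (adjusted p = 5.21e-05) and 0.75 for Fam43a (adjusted p = 0.00172). Both baselines of this test were also used to choose the genes.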

How the results depend on the processing

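Of 1736 values of the 7 genes under 28 alternatives, 1642 stayed on the same side of the adjusted p threshold, 65 fell short of it, 29 came to pass it, and 0 that passed changed sign. Besides glmTreat, results that fell short concern Prdm1, Tmem140 and Htra4, and the cause was not tested. A test against the fold threshold itself (glmTreat) is stricter by construction. It left 383 calls for ISO vs Vehicle, 725 for Lipase Inh. + ISO vs Lipase Inh. + Vehicle, 237 for the ISO by inhibitor interaction, 234 for SR-3420 vs Vehicle, 70 for the SR-3420 by inhibitor interaction, 112 for Lipase Inh. + SR-3420 vs SR-3420, 319 for Lipase Inh. + ISO vs ISO, 0 for Lipase Inh. + Vehicle vs Vehicle, 0 for Lipase Inh. + SR-3420 vs Lipase Inh. + Vehicle, and 0 for genes reversing ISO direction, the 7 members reversing ISO direction included (0). Without the filter on low counts, Lipase Inh. + SR-3420 vs Lipase Inh. + Vehicle had 59 calls in place of 36. Of the members reversing ISO direction, 3 remained with total counts only, where the share of calls that were higher also went from 55.3% to 22.2% for ISO vs Vehicle and from 62.6% to 40.1% for SR-3420 vs Vehicle, and 3 when thinned to the smallest library. When each library was left out in turn the number was 4 to 7, with 4 without Vehicle replicate 1. With the adjusted p alone, an alternative added after seeing the data, genes reversing ISO direction numbered 453.

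Same-numbered samples deviated together for number 3 (mean correlation 0.190, 15 of 15 pairs over 0.1), for number 2 in 12 of 15 pairs (mean 0.150) and for number 1 in 1 of 15 (mean -0.012), beside 8 of 90 pairs of different numbers (mean -0.055). The deviations were taken from the mean of 3 samples per group, so a number midway between the others shows little tie either way. This check therefore cannot show that number 1 was untied. The main fit did not pair samples, as no label ties them across groups. Its errors therefore include what same-numbered samples shared. With the replicate block, 10 genes reversing ISO direction were found, 7 of them the members, Lipase Inh. + SR-3420 vs SR-3420 had 499 calls in place of 501, and Tmem140 passed there at 0.44 (adjusted p = 0.000327). Tmem140 also came to pass for Lipase Inh. + SR-3420 vs Lipase Inh. + Vehicle, at 0.58 (adjusted p = 0.000132), and Prdm1 for the SR-3420 by inhibitor interaction, at -1.89 (adjusted p = 0.0491). Depth limits Prdm1 and Htra4 most, with counts of 0 to 27 and 2 to 78.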
